A study of Trichoderma reesei with 36 samples.

Results

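In the fungus *Trichoderma reesei* Rut-C30, 68 of 9129 counted genes differed between a pure lactose feed (L100) and a pure glucose feed (G100) at 48 h of fed-batch by limits that they did not reach at 24 h. Of these 68 genes, 31 were higher and 37 were lower on L100 at 48 h. They were chosen on CPM, the reads of a gene scaled to a common library size, with the TMM method to adjust between libraries. The log2 ratio of the group means, L100 over G100 with 0.5 CPM added to each mean, had to be at least 1 in size at 48 h and below 0.5 in size at 24 h, and the mean had to reach 5 CPM in at least 1 of these feeds at 48 h. Of the 9129 genes, 7249 reached this level and 1231 of those reached the limit at 48 h. Of these 1231, 1163 were already past the limit at 24 h, which left the 68. The values of the G100 and L100 libraries therefore chose the genes, and they are given below as a description without a test.

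The study sequenced messenger RNA in 36 libraries of the strain Rut-C30, grown in fed flasks and sampled 24 h and 48 h after the feed began. Every culture first grew on glucose alone in batch, and the feed started once that glucose was used up. The feeds were G100 (6 libraries at each time), a mixture of 90% glucose and 10% lactose (G90-L10, 2 libraries at each time), a mixture of 75% glucose and 25% lactose (G75-L25, 4 at each time) and L100 (6 at each time). Library labels start with 2014 in the pure feeds but 2015 in the mixtures. What separates a mixture from a pure feed cannot be told apart from what separates these label years.

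*T. reesei* secretes cellulases, enzymes that break cellulose into sugars, and lactose is the soluble sugar used in industry to induce them. Glucose does not induce them, and in the wild type it represses them through the carbon catabolite repressor CRE1. Rut-C30 is a mutant line with a truncated CRE1, in which this repression is partly relieved. In a fed-batch the sugar enters slowly, and lactose has to be split by a beta-galactosidase into glucose and galactose before it is used.

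Total counts ran from 9955798 to 49808747 per library, and every one of the 68 genes had at least 11 counts in each of the 35 libraries used. As a check of the feed labels, *cbh1*, which encodes the main secreted cellulase and responds to lactose, had 158580 to 205510 CPM in 5 of the 6 libraries labelled L100 at 48 h, against 4550 to 14752 CPM in the 6 libraries labelled G100 at 48 h. The library labelled L100 replicate 3 at 48 h had 4189 CPM, which goes against its label, and the choice of the 68 genes left it out. Replicate numbers only name libraries here. For the 31 genes higher on L100, this library lay below every other L100 library at 48 h in 28, where 65.4% of all genes higher on L100 and past the level limit did so. For the 37 lower genes it lay above every other L100 library in 24, where the share among all genes lower on L100 was 67.2%. The 68 genes were chosen without this library, for a ratio of at least 1 in size in the means of the others. The shares take in genes with a ratio of any size. Differences between these counts and shares thus follow in part from the choice.

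The name "late" fits these genes only by the limits used. At 48 h the median log2 ratio was 1.31 for the 31 higher genes (1.01 to 2.57) and -1.16 for the 37 lower genes (-2.16 to -1.001). At 24 h the medians were 0.30 and -0.33, already on the same side. The ratio had the same sign at both times in 57 of the 68 genes and the opposite sign in 11, and 25 genes had a ratio of 0.4 or more in size at 24 h while 10 were below 0.1. Only 3 genes reached a log2 ratio of 2 in size at 48 h. The 5 L100 libraries and the 6 G100 libraries did not overlap at 48 h in 46 of the 68 genes, 20 higher and 26 lower. The same held for 46.7% of the 7249 genes past the level limit. At 24 h the 6 and 6 libraries did not overlap in 3 of the 68 genes, where the share was 46.3%. These counts follow from the way the genes were chosen. With the library that goes against its label included, 15 of the 68 genes did not overlap at 48 h, and 13.1% of the genes past the level limit.

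**Figure D1:**
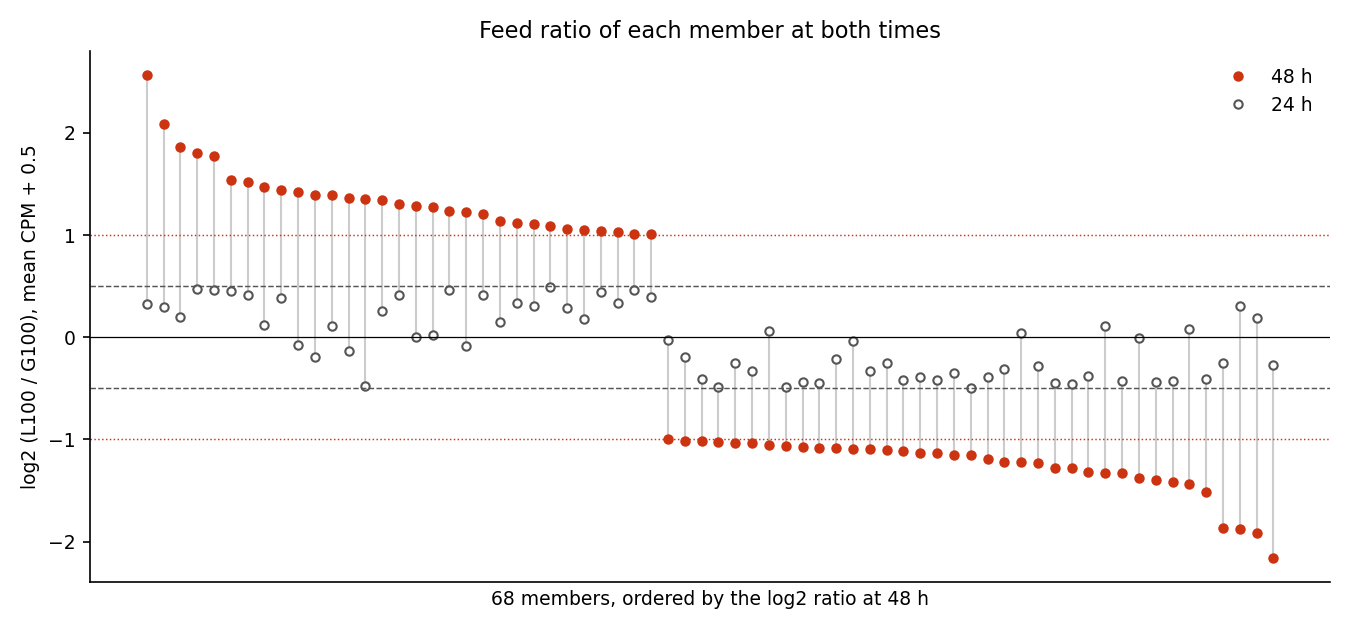
Log2 ratio of mean CPM, L100 over G100, for each of the 68 genes at 48 h (filled) and 24 h (open), ordered by the value at 48 h, with the limits of 1 and 0.5 in size drawn dotted and dashed. The medians at 48 h were 1.31 for the 31 higher genes and -1.16 for the 37 lower genes, and at 24 h most points already lay on the same side of 0.

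The gene with the largest ratio was 120030, whose function is not known. At 48 h it had 180, 127, 73.8, 326 and 270.6 CPM in the L100 libraries, against a lowest value of 20.9, a median of 32.3 and a highest of 42.7 CPM in the 6 G100 libraries. The groups did not overlap, although the 5 L100 values were themselves far apart. At 24 h the same gene had 44.6, 48.6 and 59.7 CPM (lowest, median and highest of 6) on L100, against 26.0, 38.6 and 50.7 CPM on G100, so the groups overlapped. Its log2 ratio was 2.57 at 48 h and 0.32 at 24 h. In the library that goes against its label it had 10.0 CPM, below all G100 libraries.

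Gene 81586, also of unknown function, had orthologs in *Neurospora crassa* (NCU02329) and *Aspergillus nidulans* (AN6423) in the study's list. It had 45.9, 24.1, 8.03, 26.4 and 22.2 CPM on L100 at 48 h, against 3.33, 5.31 and 9.08 CPM (lowest, median, highest) on G100. Here 1 L100 library, replicate 4, fell within the range of G100, and the other 4 were above it. The log2 ratio was 2.08 at 48 h and 0.30 at 24 h.

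Gene 104106, which has no annotation in the sources used, varied even more between libraries of 1 feed. It had 192, 27.1, 22.6, 95.2 and 67.3 CPM on L100 at 48 h, against 7.34, 18.7 and 49.8 CPM (lowest, median, highest) on G100. Replicates 2 and 4 of L100 lay within the range of G100, and the log2 ratio was 1.86. Gene 59272, by contrast, had 53.7, 41.3, 23.6, 45.2 and 43.2 CPM on L100 at 48 h, against 8.20, 10.8 and 16.4 CPM on G100, with no overlap and a log2 ratio of 1.80.

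The other genes with large ratios differed in how cleanly the feeds separated. Gene 60422 had 88.4, 49.0, 36.2, 65.0 and 69.9 CPM on L100 at 48 h, against 9.86 to 27.6 CPM over the 6 G100 libraries, and 103669 had 116, 76.1, 70.3, 112 and 144 CPM, against 26.3 to 48.8 CPM. Neither overlapped. Gene 122998, with 345, 83.1, 125, 233 and 198 CPM on L100 against 51.1 to 111 CPM on G100, and 5812, with 32.4, 50.3, 8.92, 28.5 and 22.8 CPM against 5.85 to 18.2 CPM, each had 1 L100 library within the range of G100. Their log2 ratios at 48 h were 1.77 for 60422, 1.54 for 103669, 1.52 for 122998 and 1.47 for 5812, and at 24 h 0.46, 0.45, 0.42 and 0.12. None of the 4 is annotated in the sources used.

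The most abundant of the 68 genes was 65290, which only just reached the limit. It had 5853, 4732, 4448, 6920 and 6036 CPM on L100 at 48 h, against 2242, 2809 and 3088 CPM (lowest, median, highest) on G100. The groups did not overlap and the ratio was 1.01. Per kilobase of gene span, its mean level was 4299 CPM on L100 and 2133 CPM on G100. Over all 31 higher genes the median of the mean levels at 48 h was 38.0 CPM on L100 and 12.1 CPM on G100, and over the 37 lower genes it was 9.84 CPM on L100 and 26.5 CPM on G100.

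Among the lower genes the largest ratio belonged to 80340, annotated as a putative alpha-1,6-mannosyltransferase of the HOC1 type. In *Saccharomyces cerevisiae*, Hoc1 is part of a Golgi complex that builds the mannan chains of cell wall proteins. It had 7.72, 10.9, 24.9, 6.37 and 12.3 CPM on L100 at 48 h, against 27.1, 46.1 and 106.7 CPM (lowest, median, highest) on G100. The highest L100 library was just below the lowest G100 library. At 24 h the values were 16.3, 30.3 and 75.4 CPM on L100, against 26.2, 43.6 and 61.6 CPM on G100, with wide overlap. The log2 ratios were -2.16 at 48 h and -0.27 at 24 h. The library that goes against its label had 80.1 CPM, within the range of G100.

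Gene 104461 is annotated as a putative alpha/beta-hydrolase, a fold shared by many lipases and esterases. It had 15.3, 12.8, 39.2, 18.8 and 19.7 CPM on L100 at 48 h, against 44.2, 83.1 and 93.3 CPM (lowest, median, highest) on G100. The groups did not overlap, with a log2 ratio of -1.87 at 48 h and -0.26 at 24 h. On L100 alone the mean was 21.2 ± 10.5 CPM at 48 h (SD, n = 5), against 62.8 ± 15.1 CPM at 24 h (SD, n = 6). On G100 it was 78.7 ± 17.4 CPM at 48 h and 75.1 ± 11.1 CPM at 24 h (SD, n = 6 each). In the library that goes against its label, 104461 had 8.68 CPM, below every other L100 library.

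Gene 59740 was the only annotated transcription factor among the 68. It is annotated as a Zn(2)Cys6 protein, a class of DNA-binding regulators found in fungi, with the orthologs NCU01931 in *N. crassa* and AN0766 in *A. nidulans*. It had 5.71, 6.66, 11.96, 6.74 and 5.61 CPM on L100 at 48 h, against 12.7, 21.1 and 27.3 CPM (lowest, median, highest) on G100. The L100 libraries were all below G100, and the log2 ratio was -1.41 at 48 h and -0.43 at 24 h. Gene 106160, a putative kinase-like protein, had 3.34, 4.76, 13.3, 4.79 and 3.74 CPM on L100 at 48 h, against 7.57, 14.6 and 25.2 CPM on G100. Replicate 4 of L100 lay within the range of G100, and the log2 ratio was -1.38 at 48 h and -0.01 at 24 h.

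Among the lower genes without a known function, 64925 had 9.49, 6.43, 13.6, 7.94 and 10.3 CPM on L100 at 48 h, against 23.4 to 38.2 CPM on G100, with no overlap and a log2 ratio of -1.52. Gene 3434 had 3.98, 5.07, 7.15, 3.67 and 4.87 CPM on L100, against 9.02 to 17.7 CPM on G100, and a log2 ratio of -1.33. Gene 28185 had 7.80, 10.3, 12.1, 9.21 and 7.98 CPM on L100, against 17.5 to 60.1 CPM on G100. The mixtures did not place 28185 between the pure feeds, since G90-L10 had 41.6 and 78.7 CPM and G75-L25 17.7, 30.1, 45.0 and 15.5 CPM. Gene 112578 was low in every mixture, with 2.06 and 0.503 CPM on G90-L10 and 2.59, 1.75, 1.12 and 1.25 CPM on G75-L25 at 48 h, beside 1.54 to 2.85 CPM on L100 and 3.02 to 8.08 CPM on G100.

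**Figure D2:**
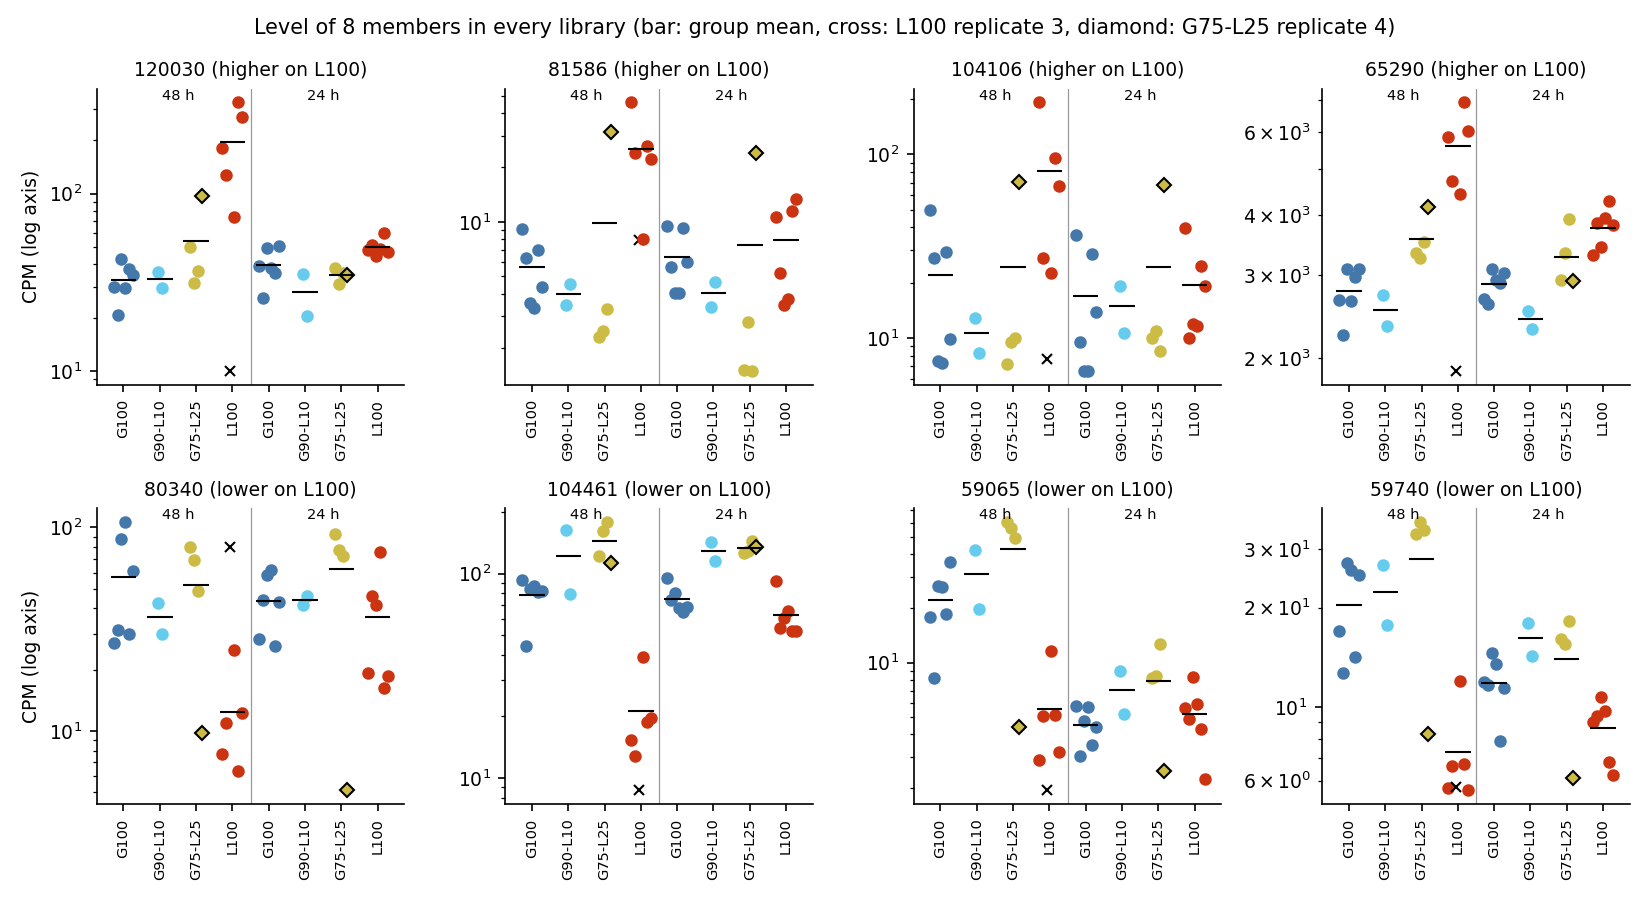
CPM of 8 of the 68 genes in every library on a log axis, by feed, with the 48 h groups left of the 24 h groups. Points are libraries, bars are group means without the library that goes against its label (cross), and the diamond is G75-L25 replicate 4. At 48 h 120030 had 73.8 to 326 CPM on L100 and 20.9 to 42.7 CPM on G100, while 59065 had 2.90 to 11.6 CPM on L100 and 8.24 to 36.3 CPM on G100.

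The change with time, log2 of the mean at 48 h over the mean at 24 h, was larger in size on L100 in 53 of the 68 genes (25 higher and 28 lower) and on G100 in 15 (6 higher and 9 lower). It was larger on L100 in 59.8% of all genes past the level limit, and the choice of the 68 used these same means. For the 31 higher genes the median change was -0.28 for G100, -0.25 for G90-L10, -0.0012 for G75-L25 and 0.71 for L100. For the 37 lower genes it was 0.16 for G100, -0.09 for G90-L10, -0.03 for G75-L25 and -0.72 for L100. Within L100, 30 of the 31 higher genes had a positive change and 36 of the 37 lower genes a negative one. The change reached 1 in size on L100 in 10 higher and 5 lower genes, and on G100 in 4 higher and 2 lower genes.

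In the 15 genes with the larger change on G100, the pattern was another than in 120030 or 104461. Genes 59065 and 105445, both putative proteins of unknown function, were near their early level on L100 at 48 h and had left it on G100. For 59065 the mean on L100 was 5.56 ± 3.53 CPM at 48 h (SD, n = 5), against 5.21 ± 2.01 CPM at 24 h (SD, n = 6), and on G100 it was 22.4 ± 9.62 CPM at 48 h, against 4.50 ± 1.11 CPM at 24 h (SD, n = 6 each). For 105445 the mean on L100 was 5.83 ± 4.42 CPM at 48 h (SD, n = 5), against 6.81 ± 2.80 CPM at 24 h (SD, n = 6), and on G100 it was 22.8 ± 8.55 CPM at 48 h, against 5.41 ± 1.95 CPM at 24 h (SD, n = 6 each). In both genes replicate 4 of L100 at 48 h, at 11.6 and 13.5 CPM, reached into the range of G100. Among the higher genes, 123468 and 5275 showed the mirror image, a lower level on G100 at 48 h. Gene 123468 had 21.2, 10.7, 12.5, 11.1 and 13.8 CPM on L100 at 48 h, against 1.98, 4.86 and 7.74 CPM (lowest, median, highest) on G100, with no overlap. At 24 h it had 7.57, 10.7 and 16.9 CPM on L100, against 3.30, 13.2 and 23.9 CPM on G100. Its log2 change with time was 0.24 on L100 and -1.27 on G100. Gene 5275 had 11.7, 2.36, 2.78, 8.46 and 7.81 CPM on L100 at 48 h, against 0.846, 1.71 and 4.03 CPM (lowest, median, highest) on G100, so that replicates 2 and 4 of L100 lay within the range of G100. Its log2 change was -0.10 on L100 and -1.16 on G100.

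**Figure D3:**
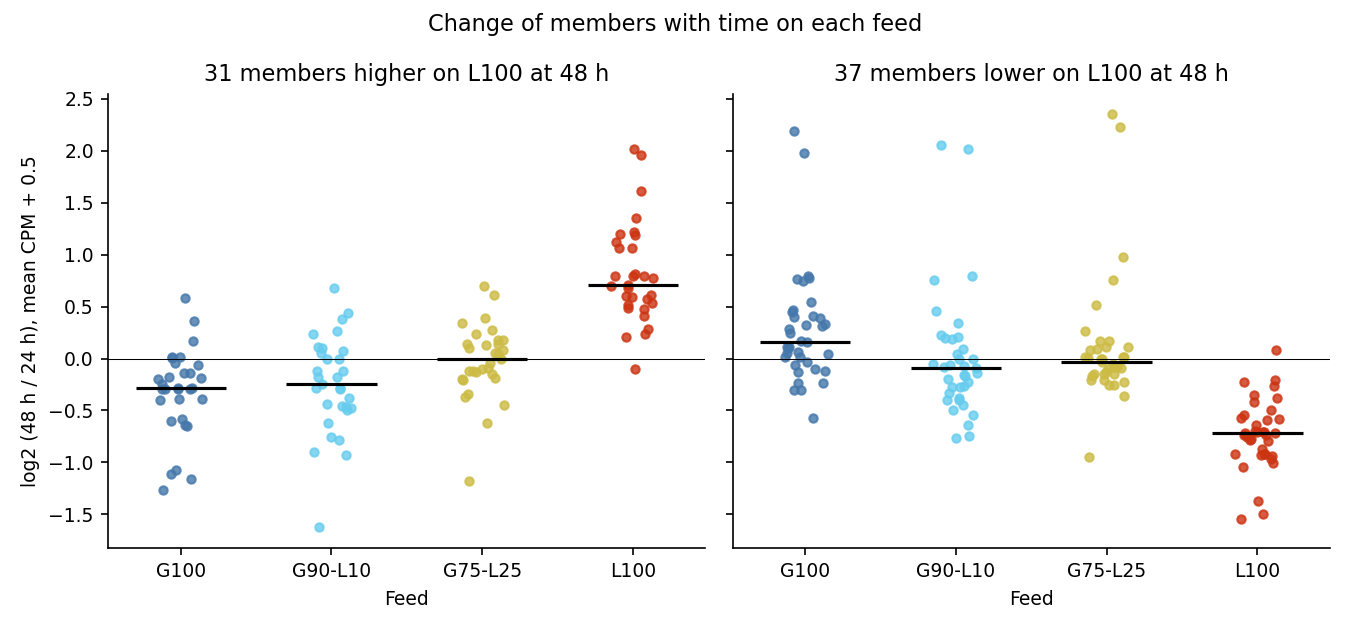
Change with time, log2 of mean CPM at 48 h over 24 h with 0.5 CPM added, for the 31 genes higher (left) and the 37 genes lower (right) on L100 at 48 h, by feed. Points are genes and bars are medians. The medians on L100 were 0.71 and -0.72, those on G100 were -0.28 and 0.16, and on G75-L25 they were near 0.

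The mixed feeds did not enter the choice of the genes. At 48 h the mean on G75-L25 was nearer to G100 than to L100 on the log2 scale in 27 of the 31 higher and 33 of the 37 lower genes, and on G90-L10 in 28 and 29. In the median higher gene G75-L25 covered 27.5% of the log2 distance from G100 to L100, and G90-L10 covered 0.62%. In the median lower gene G75-L25 covered 15.5% and G90-L10 19.3%. These shares use the G100 and L100 means that chose the genes and carry no test. Neither the shares nor the counts of genes nearer to G100 were computed for other genes. They therefore do not set the late genes apart. The G75-L25 means include replicate 4. At 48 h the median log2 value of the higher genes over the G100 mean was 1.135 in replicate 4. It was -0.08, -0.05 and -0.01 in replicates 1, 2 and 3, so the 27.5% rests largely on replicate 4. For the lower genes the median was -1.05 in replicate 4 and -0.03, -0.09 and -0.08 in replicates 1, 2 and 3. The 15.5% thus rests largely on replicate 4 as well. Shares without replicate 4 were not computed.

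Within G75-L25, replicate 4 stood apart from the other 3 libraries at both times. Replicate 4 of G75-L25 at 48 h was the highest of its 4 libraries in 28 of the 31 higher genes, where it was the highest in 35.6% of all genes past the level limit. It was the lowest of the 4 in 32 of the 37 lower genes, where the share over all genes was 34.2%. At 24 h replicate 4 was the highest in 26 of the 31 higher genes, against 36.5% of all genes, and the lowest in 32 of the 37 lower genes, against 35.6% of all genes. The shares at both times take in genes of either direction on L100. Shares among only the genes higher or only the genes lower on L100 were not computed. The counts therefore do not set the 68 apart from other genes of their direction. Replicate 4 had 106270 CPM of *cbh1* at 48 h and 91481 CPM at 24 h. The other G75-L25 libraries had 52225 to 61870 CPM at 48 h and 54517 to 68625 CPM at 24 h. The part of this difference in the values of the 68 genes was not tested. Each library pools a whole mycelium, in which fewer cells with a transcript and less of it per cell cannot be told apart.

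Single genes show how far replicate 4 stood from the rest. Gene 81586 had 2.30, 2.48, 3.28 and 31.5 CPM on G75-L25 at 48 h in replicates 1 to 4, and 1.52, 2.78, 1.48 and 24.0 CPM at 24 h. Gene 104106 had 7.18, 9.45, 9.99 and 70.8 CPM at 48 h and 9.95, 10.9, 8.51 and 68.1 CPM at 24 h. Gene 80340, the putative mannosyltransferase, had 80.1, 69.2, 48.5 and 9.81 CPM at 48 h and 93.2, 77.8, 72.6 and 5.10 CPM at 24 h. Replicate 4 thus lay outside the other 3 libraries at both times in each of the 3 genes, on the side where L100 lay at 48 h. The 120030 gene was an exception at 24 h, with 34.9 CPM in replicate 4 and 38.2, 30.8 and 35.95 CPM in the others, and followed the pattern at 48 h with 97.2 CPM and 49.9, 31.4 and 36.8 CPM.

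The median over the genes in each library gives the same picture. Set against the G100 mean of the same time, the median log2 value of the 31 higher genes was 1.135 in G75-L25 replicate 4 at 48 h and between -0.08 and -0.01 in the other 3 libraries. For the 37 lower genes it was -1.05 in replicate 4 and between -0.09 and -0.03 in the others. At 24 h the medians in replicate 4 were 0.68 for the higher and -0.87 for the lower genes, beyond those of all 6 L100 libraries at that time, which ran from 0.03 to 0.54 and from -0.74 to -0.06. The limit of 0.5 at 24 h held the L100 means near G100 in these genes. That replicate 4 lay beyond L100 at 24 h thus follows in part from the choice and does not rank the feeds. The G100 libraries spread as well, from -0.42 to 0.33 at 48 h for the higher genes and from -0.49 to 0.26 for the lower genes.

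**Figure D4:**
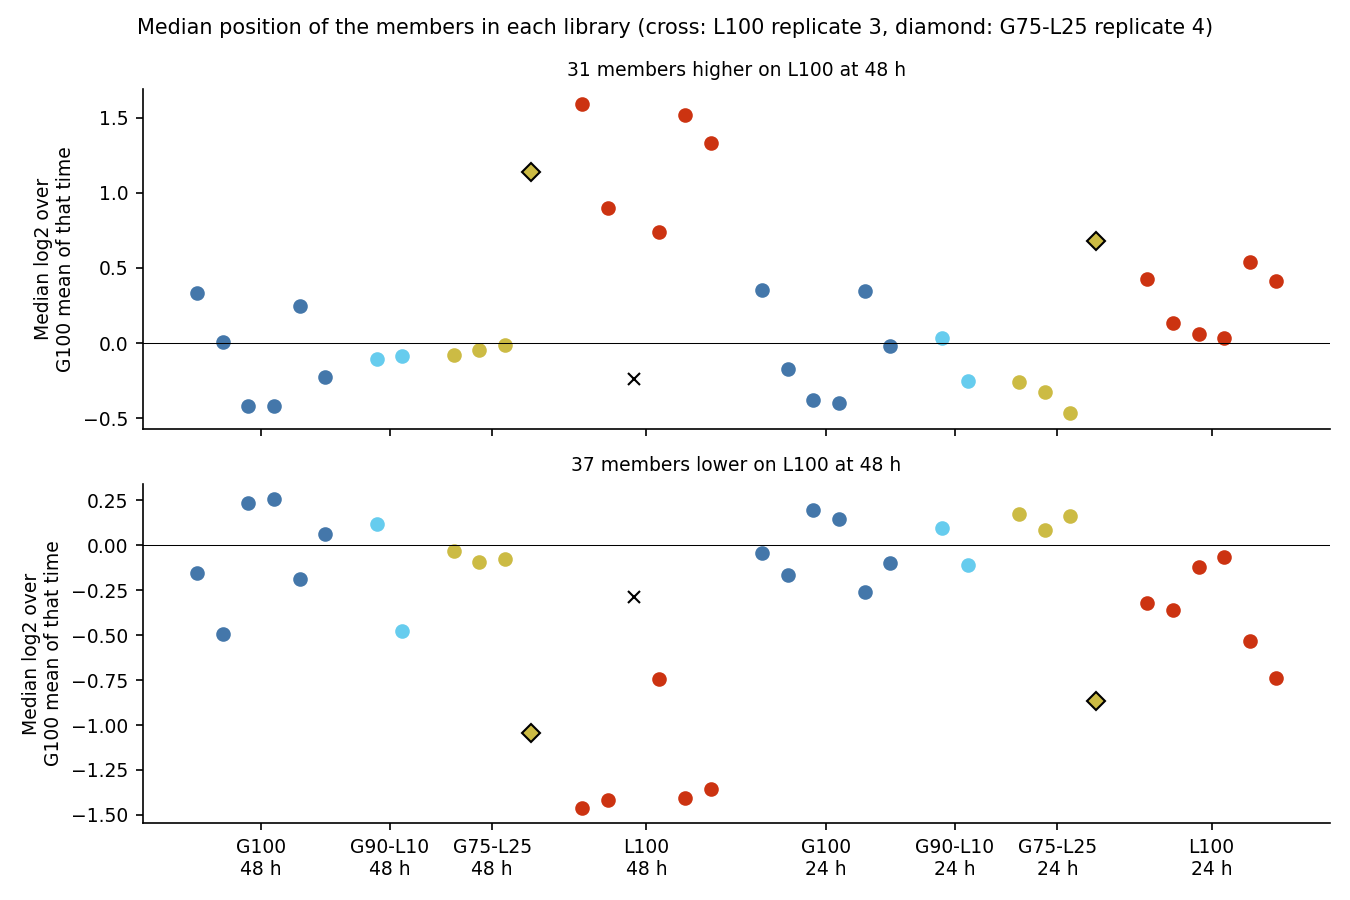
Median over the 31 higher genes (top) and the 37 lower genes (bottom) of the log2 value in each library over the G100 mean of the same time, with the 48 h groups left of the 24 h groups. Each point is a library. G75-L25 replicate 4 (diamond) stood at 1.135 and -1.05 at 48 h, near the L100 libraries, and L100 replicate 3 (cross) at -0.24 and -0.29.

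Whether the genes changed with time on a mixed feed was tested with edgeR's quasi-likelihood test on the counts, with Benjamini-Hochberg adjusted p-values over all 8338 genes that entered the test. On G75-L25, 48 h against 24 h, 2 of the 68 genes passed an adjusted p of 0.05, where 1.31% of all genes tested did. Both were higher at 48 h. With these, 7 of the 68 had an unadjusted p below 0.05, beside 13.3% of all genes, so the 68 were not above the share of the whole table by that count. The median log2 fold change was 0.00 over the 31 higher genes and -0.03 over the 37 lower genes, beside 0.00 over all genes.

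The genes that passed were 59065 and 105445. Gene 59065 had 60.7, 55.8, 49.5 and 4.39 CPM on G75-L25 at 48 h, against 8.17, 8.41, 12.7 and 2.50 CPM at 24 h. It was higher in replicates 1 to 3 at 48 h than in any library at 24 h, while replicate 4 stayed within the early range. The log2 fold change was 2.42 ± 0.55 (SE, edgeR adjusted p = 0.0194). Gene 105445 had 79.3, 56.5, 46.8 and 4.52 CPM at 48 h, against 11.6, 10.2, 13.5 and 3.20 CPM at 24 h, with the same library standing apart. Its log2 fold change was 2.28 ± 0.57 (SE, edgeR adjusted p = 0.0347). The calls depended on the fit. With all 36 libraries the edgeR adjusted p was 0.0586 for 59065 and 0.0984 for 105445, and with only the G75-L25 libraries in the fit it was 0.365 and 0.392. Both calls were also lost without any 1 of replicates 1, 2 and 4 at 24 h or 1, 2 and 3 at 48 h, with edgeR adjusted p between 0.0510 and 0.0628 for 59065 and between 0.0790 and 0.110 for 105445. Without replicate 4 at 48 h the fold changes were 2.80 and 2.66, with edgeR adjusted p = 0.000691 and 0.00178.

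On G90-L10 the same genes had the same direction. Gene 59065 had 42.3 and 19.8 CPM at 48 h, against 9.025 and 5.16 CPM at 24 h, and a log2 fold change of 2.12 ± 0.77 (SE, edgeR adjusted p = 0.328). Gene 105445 had 50.2 and 28.2 CPM at 48 h, against 12.1 and 6.49 CPM at 24 h, and a log2 fold change of 2.07 ± 0.80 (SE, edgeR adjusted p = 0.377). None of the 68 genes passed on G90-L10 with edgeR or with DESeq2, where 0.300% of all genes tested passed with edgeR and 0.684% with DESeq2. At an unadjusted edgeR p below 0.05 there were 8 of the 68, beside 9.63% of all genes. Whether the change with time differed between G75-L25 and G90-L10 was tested as an interaction, in which 0 genes of the whole table and 0 of the 68 passed with edgeR, with 110 genes and 0 of the 68 at an unadjusted p below 0.05.

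The genes next to the threshold on G75-L25 moved less. Gene 105854 had 50.7, 42.4, 53.4 and 31.8 CPM at 48 h, against 35.8, 29.9, 34.5 and 24.2 CPM at 24 h, with a log2 fold change of 0.52 ± 0.14 (SE, edgeR adjusted p = 0.0564). Gene 123797 had 184, 192, 169 and 66.7 CPM at 48 h, against 336, 325, 290 and 227 CPM at 24 h, and its groups did not overlap. Its log2 fold change was -0.94 ± 0.27 (SE, edgeR adjusted p = 0.0807). Gene 75000 had 301, 321, 454 and 476 CPM at 48 h, against 217, 201, 255.05 and 285 CPM at 24 h, also without overlap. Its log2 fold change was 0.70 ± 0.21 (SE, edgeR adjusted p = 0.0933). The transcription factor gene 59740 had 33.4, 36.4, 34.3 and 8.30 CPM at 48 h, against 16.1, 15.6, 18.3 and 6.10 CPM at 24 h. Its log2 fold change was 1.01 ± 0.34 (SE, edgeR adjusted p = 0.153), and 1.07 with an edgeR adjusted p of 0.0387 when replicate 4 was left out at both times.

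**Figure D5:**
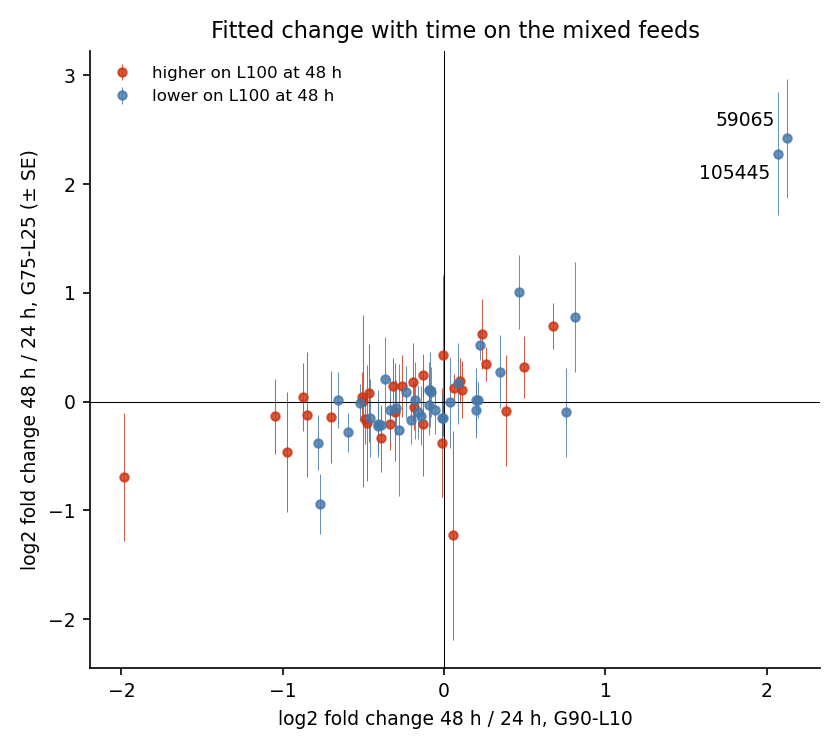
Log2 fold change at 48 h over 24 h from edgeR on G75-L25 (vertical axis, bars are SE) and on G90-L10 (horizontal axis, SE not drawn) for the 68 genes. Genes 59065 and 105445 stand at 2.42 and 2.28 on G75-L25 and at 2.12 and 2.07 on G90-L10, away from the other 66.

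The genes were also compared between the mixed feeds. By the paper's methods each starting flask supplied a single mixture, so G75-L25 and G90-L10 came from different starting cultures. What separates the mixed feeds cannot be told apart from what separates these cultures, also in the interaction with time. At 48 h, G75-L25 against G90-L10, none of the 68 genes passed with edgeR, where 2.11% of all genes tested did. At an unadjusted p below 0.05 there were 4 of the 68, beside 22.8% of all genes, and DESeq2 called 3 of the 68, beside 6.56% of all genes. The fold change was positive in 26 of the 31 higher genes, with a median of 0.41, and in 23 of the 37 lower genes, with a median of 0.12, beside 48.6% of all genes. With G75-L25 replicate 4 left out at both times, it was positive in 16 of the 31 higher genes with a median of 0.02, beside 49.7% of all genes. In the lower genes 28 of 37 were then positive, with a median of 0.31. Gene 65290, the most abundant, had 3327, 3261, 3516 and 4177 CPM on G75-L25 at 48 h, against 2725 and 2338 CPM on G90-L10. All 4 were above both, with a log2 fold change of 0.49 ± 0.16 (SE, edgeR adjusted p = 0.0736).

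At 24 h, G75-L25 against G90-L10, none of the 68 genes passed with edgeR or DESeq2, where 1.95% of all genes passed with edgeR and 6.16% with DESeq2. At an unadjusted edgeR p below 0.05 there were 4 of the 68, beside 22.9% of all genes. The fold change was positive in 19 of the 31 higher genes and 15 of the 37 lower genes, beside 49.4% of all genes, and without replicate 4 in 9 of the 31 and 24 of the 37, beside 48.0% of all genes. With 2 libraries of G90-L10 at each time, such differences had to be large to pass.

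Genes whose feed ratio was 1 or more in size at both times and in the same direction numbered 845. On G75-L25 between the times 2.94% of the 68 late genes passed, beside 2.60% of the 845. Between G75-L25 and G90-L10 at 48 h, 0% of the 68 passed with edgeR, beside 7.57% of the 845. The difference between these sets was not tested.

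Few of the 68 genes carry an annotation. The study's own list of differentially expressed genes, which was drawn from these same libraries, holds 10 of them, 2 higher and 8 lower, and 6 of the 10 are of unknown function. By the functions in that list, the late genes took in 1 of 23 transcription factors (59740) and 1 of 30 signalling genes (106160). They took in 0 of 61 transporters, 0 of 75 carbohydrate-active enzymes, 0 of 61 oxidoreductases, 0 of 19 proteolysis genes, 0 of 16 secondary metabolism genes, 0 of 15 folding and secretion genes and 0 of 12 cell wall and surface genes, a list whose search words did not take in the mannosyltransferase 80340. The 68 are 0.938% of all genes past the level limit, so lists of this size would hold few of them at that share. The lists were also drawn from genes that the study had called. Past the level limit, 44 of 48 transporters and 59 of 64 carbohydrate-active enzymes were among the 845 genes with a large ratio at both times. The counts of 0 therefore say nothing about these groups. On G75-L25 between the times, 0 of the 23 transcription factors passed with edgeR, 0 with DESeq2 and 2 at an unadjusted edgeR p below 0.05. Of the 30 signalling genes 0 passed with edgeR, 2 with DESeq2 (beside 2.46% of all genes) and 4 at an unadjusted edgeR p below 0.05 (beside 13.3%), and 1 of the 75 carbohydrate-active enzymes passed as higher and 1 as lower at 48 h.

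Some of the genes lie side by side in the genome of the parent strain QM6a, by the order of genes in the RefSeq table of its assembly v2.0, which matched all 68. Genes 105445 and 59065 are direct neighbours 1255 bases apart, and their *N. crassa* orthologs, NCU06412 and NCU06413, have consecutive numbers. Genes 67778 and 123468, both higher on L100, are direct neighbours 644 bases apart, and 59166 and 22035, both lower, are 4080 bases apart. The 80340 gene has 109960 as a neighbour with 2 genes between. Genes 69811, 69816 and 5812, all higher, lie in a row with 3 and 2 genes between them. In all 7 pairs of the 68 with at most 3 genes between them the ratio at 48 h had the same direction. Neither the number of such pairs nor their shared direction was computed for other genes, so this does not set the 68 apart. Genes 67778, 59166, 69811 and the last pair, 121839 and 121843, were picked for their position after the values were seen.

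Some genes lay close to the limits on either side. The members nearest the limit at 48 h were 3717, 65290 and 2100 with ratios of 1.00, 1.01 and 1.01 in size, and 76992, 108535 and 76117 stood just outside at 0.9997, 0.992 and 0.991. At 24 h members 112516, 22271 and 22035 had ratios of 0.498, 0.495 and 0.488 in size, and 52375, 124016 and 55443 stood just outside with 0.5001, 0.501 and 0.504. By level, members 109960, 61632 and 112578 had 5.02, 5.72 and 6.13 CPM in their higher feed, and 4240, 56370 and 42571 were just below with 4.68, 3.98 and 3.95 CPM. Leaving out 1 pure-feed library at a time found between 56 and 90 genes and kept between 53 and 67 of the 68, and 24 of the 68 were kept in all 23 of these settings.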

How the data were processed

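The authors sequenced stranded mRNA libraries and processed the reads with the Eoulsan pipeline, which removed poly-N tails and short or low-quality reads. The deposited files hold 1 raw count per gene and library for the 9129 genes of the JGI annotation version 2, without normalization. The submitters' processing notes name bcl2fastq 2.17.1.14, Bowtie and HTSeq 0.5.3. The handling of reads shared by similar genes is not given in the sources used here.

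The test of the counts was run in R 4.3.3 with edgeR 4.0.16 over 35 libraries, 1 mean for each of 8 groups, leaving out 1 library whose *cbh1* level goes against its label. CPM used TMM factors. Genes passed filterByExpr with a minimum count of 10, and calls were at an adjusted p below 0.05. DESeq2 1.42.0, other scalings, filters and library sets and the stricter limits of the study (adjusted p below 0.001, log2 fold change above 2 in size) were alternatives. The script was tested on simulated counts. Named genes were the 12 with the largest rise and the 12 with the largest fall at 48 h, the 5 with the smallest p in each direction on G75-L25, annotated members of a gene list, and the 3 nearest each limit. Not all of these are shown with values. The members and gene lists were chosen with earlier results of these data known. Functions came from the study's list, and gene order from RefSeq, where 9072 of 9129 IDs matched. SE is the log2 fold change divided by the square root of F. The paper calls the repeats biological replicates, each with its own starting flask. The broth of each starting flask was divided over pure lactose, pure glucose and a single mixture. No label ties a library to its flask or a 48 h library to a 24 h library. Libraries of both times were therefore treated as separate, and p-values measure the spread between libraries. Means, ratios and figures were made in Python 3.11.15 with pandas 2.3.3, numpy 2.4.6, scipy 1.17.1 and matplotlib 3.10.9. Total counts per library ran from 9955798 to 49808747.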

Additional observations from a re-analysis of the deposited data

Results flagged for a closer look

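Among 96 groups of 4 to 6 libraries checked over 16 genes, 22 held a library far from the others by Dixon's criterion, where chance flags about 1 in 20. The checks reuse the same libraries over the 16 genes, so they are not independent. A few libraries account for most of the 22, and the count cannot be set against that rate. In G75-L25 replicate 4 the values were high for 81586 (31.5 CPM at 48 h, 24.0 at 24 h), 104106 (70.8 and 68.1), 59272 (24.4 and 22.5), 5275 (8.86 and 10.6) and 123468 (26.1 and 35.7), and low for 59740 at 48 h (8.30 CPM). In L100 at 48 h, replicate 4 was high for 104461 (39.2 CPM), 59065 (11.6), 105445 (13.5) and 59740 (11.96), and replicate 1 for 123468 (21.2). At 24 h, L100 replicate 1 was high for 104461 (91.9 CPM) and G100 replicate 5 for 75000 (278 CPM). At 48 h, G100 replicate 2 was low for 104461 (44.2 CPM).

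The library labelled L100 replicate 3 at 48 h was left out of the choice and the main fit, but it entered these checks. It stood far from the other L100 libraries in 80340 (80.1 CPM), 105313 (58.6 CPM) and 123797 (721 CPM). It also lay above every G100 library at 48 h in 8 genes, picked after their values were seen: 123797 and 105313 at these values, 120803 (244 CPM), 112516 (38.6), 4875 (35.99), 3717 (23.4), 4905 (15.4) and 123468 (12.8).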

How the results depend on the processing

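On G75-L25 between the times, the 2 calls became 5 with DESeq2 (4 higher and 1 lower, beside 2.46% of all genes), 4 with 33 libraries (G75-L25 replicate 4 left out at both times, beside 1.51%), 0 with only the groups compared, 0 with all 36 libraries and 0 under the study's stricter limits. Leaving out 1 library at a time gave 0 to 5 calls. The calls of 59065 and 105445 were kept without replicate 3 at 24 h or replicate 4 at 48 h and lost without any other G75-L25 library, with edgeR adjusted p of 0.0510 to 0.0628 and 0.0790 to 0.110. Between the mixed feeds at 48 h, 0 calls became 3 with DESeq2 and 1 with library size alone, and leaving out 1 library gave 0 to 3, the 3 without G75-L25 replicate 1. At 24 h, 0 became 2 with library size alone and leaving out 1 library gave 0 to 1. The cause of these changes was not tested.

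The choice of the 68 genes gave 42 genes with all 36 libraries, 36 of them among the 68, and 68, 54, 70, 60, 81, 54 and 84 genes with DESeq2 size factors, library size alone, a pseudocount of 0.1 or 2, a level of 1 or 10 CPM and group medians. All 68 genes had the same sign at 48 h with library size alone, which kept 10 of the 68 within the limits, since it moves the median ratio of all genes at 48 h to -0.71 from -0.03. Leaving out 1 library found 56 to 90. TMM factors from all 36 libraries, chosen after seeing the data, kept all 68. The counts without overlap with all 36 libraries and the signs between the mixed feeds with 33 libraries were also chosen then. Of 304 values of named genes under other settings, 5 changed sign, in 2 genes without a call.

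No paired analysis was possible because the labels name no flask or starting culture, and replicate numbers only follow the order of the records. By the paper's methods no starting culture supplied both mixtures. Beyond that, which libraries share a starting culture is not given in the sources used here. Whether a paired fit would change the calls was not tested. With 2 libraries of G90-L10 at each time, small changes there could not be told from replicate spread.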
